A study of Mus musculus with 16 samples.

Results

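A set of 9 genes that handle glucose, fructose and glycogen in liver was followed in RNA sequencing of mouse hepatocytes: Pcx, Pck2, Fbp1, G6pc and G6pc3 of glucose production, the glucose transporter gene Slc2a2, the fructose kinase gene Khk, and the glycogen genes Pygl and Stbd1. They were picked by gene symbol, and all 9 were found among the 54532 genes of the table. The hepatocytes, labelled as a cell line, were grown alone (3 libraries), with Phgdh WT cancer cells (3 libraries) or with Phgdh KO cancer cells (3 libraries). A CXCR2 inhibitor, not named in the labels, had been added to further co-cultures with WT (3 libraries) and with KO cancer cells (4 libraries). These groups are called hepatocytes alone, WT co-culture, KO co-culture, WT co-culture with inhibitor and KO co-culture with inhibitor. Phgdh encodes an enzyme that diverts a glycolytic intermediate to serine. It was knocked out in the cancer cells, and the hepatocytes carry no stated change, so Phgdh in hepatocyte RNA does not check the labels. It lay at 203 to 207 FPKM in hepatocytes alone, 193 to 206 in the co-cultures and 146 to 160 with inhibitor. CXCR2 is a chemokine receptor best known from neutrophils, and its gene was at 0 in all but 2 libraries, which held 4 and 2 fragments. The study's title places it in liver metastasis of pancreatic cancer. No dose, duration, vehicle, culture format, clone number or batch was stated, and hepatocytes alone were not given the inhibitor. An effect of the inhibitor on hepatocytes by themselves therefore cannot be told apart from its effect in co-culture. The labels name hepatocytes as the source of all 16 libraries, whereas the series' design text names the cancer line HY19636, and the labels were followed here. Phgdh was at 193 FPKM or more in both WT and KO co-culture without inhibitor. Which source is right was not tested. Replicates are not said to come from separate cultures. The p-values below hold for the variation from library to library, which may be technical.

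Gluconeogenesis makes glucose from pyruvate and amino acids. Pyruvate carboxylase forms oxaloacetate in mitochondria, phosphoenolpyruvate carboxykinase turns it into phosphoenolpyruvate, and a pair of phosphatases at the end of the pathway, fructose bisphosphatase and glucose phosphatase, release free glucose, which leaves or enters the hepatocyte through GLUT2. Fructose enters the same sugar pool through ketohexokinase, and glycogen is opened by a phosphorylase in the cytosol or is carried to lysosomes. Liver is a main site of these routes in mammals, though glycogen is also broken down in other tissues. Their genes in liver are read as signs of hepatocyte differentiation and of the fed or fasted state.

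Levels are given as FPKM, fragments per kilobase of gene and per M fragments. A difference is on the log2(FPKM + 1) scale, which understates changes of low genes, and is given ± its standard error. It was tested with limma over all 11395 genes with a mean of at least 1 FPKM, and a gene was called at a Benjamini-Hochberg adjusted p under 0.05. Of the 9 genes, 6 were tested. Fbp1, G6pc and Pygl lay below that mean. Statements below that groups do or do not overlap describe the libraries of that gene. The share of all genes whose groups lie apart was not computed, so a lack of overlap by itself sets no gene apart.

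Libraries held 15.002 to 21.3 M fragments, and 1 fragment in 1 kb was worth 0.0457 to 0.0648 FPKM. WT co-culture replicate 1 stood apart on the third principal component (2.99% of the variance), at a score of 20.1 against −10.2 to 7.71 in the other libraries. Of 14 hepatocyte marker genes, 12 had a mean of at least 1 FPKM over all libraries, with Alb, Ttr, Trf and Hnf4a leading. Of these 12, Cps1 and Tat were below 1 FPKM in every group mean without inhibitor, at most 0.262 and 0.409. Apoa1 was below 1 FPKM in WT and KO co-culture without inhibitor, at means of 0.494 and 0.597. Asgr1 and Cyp2e1, which mark mature hepatocytes, were near 0. The hepatocyte markers summed to 316 to 318 FPKM in hepatocytes alone, 171 to 194 in WT and 201 to 215 in KO co-culture, and 957 to 967 and 1209 to 1263 in WT and KO co-culture with inhibitor. Of 11 markers of pancreatic cancer epithelium, 5 had such a mean, led by Msln and Krt19, and Tff1 was at 0 in all libraries. Their sums were 342 to 357 FPKM in hepatocytes alone, 248 to 277 in WT and 243 to 261 in KO co-culture, and 649 to 695 and 623 to 649 with inhibitor. Of 8 cholangiocyte markers, 6 had such a mean, led by Spp1, and Krt19 and Sox9 are on both of these lists. The cholangiocyte markers summed to 1244 to 1265 FPKM in hepatocytes alone, 433 to 454 in WT and 450 to 470 in KO co-culture, and 574 to 584 and 573 to 620 with inhibitor. Spp1 alone had means of 1016 FPKM in hepatocytes alone, 315 in WT and 319 in KO co-culture, and 258 and 261 with inhibitor. The sum in hepatocytes alone exceeded that of the hepatocyte markers through Spp1 only, and the other cholangiocyte markers together lay below them. The share of fragments from mitochondrial genes was 3.25% to 4.57% without the inhibitor and 1.86% to 2.11% with it. These values moved with co-culture or the inhibitor, as the genes below did, and their part in the results was not tested. In such bulk libraries, fewer cells of a type and less RNA per cell cannot be told apart.

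The promoter sequences of Pck2, G6pc, Slc2a2 and Stbd1 are shown, of which Pck2 and Stbd1 moved alike across the groups (Pearson correlation of 0.986). They come from RefSeq on GRCm38.p6 and run from 250 bases before to 50 bases after the annotated start, all on the plus strand, at chr14:55540016-55540315 for Pck2, chr11:101367466-101367765 for G6pc, chr3:28697653-28697952 for Slc2a2 and chr5:92602801-92603100 for Stbd1. Capitals mark a match to the C/EBP-ATF response element core (TGATGNAA, read on the opposite strand).
Pck2: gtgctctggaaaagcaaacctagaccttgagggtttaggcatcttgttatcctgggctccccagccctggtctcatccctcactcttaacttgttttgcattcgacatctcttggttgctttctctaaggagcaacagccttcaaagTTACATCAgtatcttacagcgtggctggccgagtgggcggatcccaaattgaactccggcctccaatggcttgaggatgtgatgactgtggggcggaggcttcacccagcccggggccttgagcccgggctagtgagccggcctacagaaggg
G6pc: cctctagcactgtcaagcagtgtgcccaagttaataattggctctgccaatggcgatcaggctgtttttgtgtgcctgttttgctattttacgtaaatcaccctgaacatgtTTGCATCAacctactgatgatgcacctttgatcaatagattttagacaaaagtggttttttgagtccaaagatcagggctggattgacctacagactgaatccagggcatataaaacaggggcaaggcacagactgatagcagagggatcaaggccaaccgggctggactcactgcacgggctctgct
Slc2a2: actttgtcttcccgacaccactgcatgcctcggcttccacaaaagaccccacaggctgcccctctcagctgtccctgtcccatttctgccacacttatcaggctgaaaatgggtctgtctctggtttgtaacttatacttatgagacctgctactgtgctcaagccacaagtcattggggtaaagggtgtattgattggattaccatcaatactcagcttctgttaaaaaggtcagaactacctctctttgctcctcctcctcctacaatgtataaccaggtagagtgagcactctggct
Stbd1: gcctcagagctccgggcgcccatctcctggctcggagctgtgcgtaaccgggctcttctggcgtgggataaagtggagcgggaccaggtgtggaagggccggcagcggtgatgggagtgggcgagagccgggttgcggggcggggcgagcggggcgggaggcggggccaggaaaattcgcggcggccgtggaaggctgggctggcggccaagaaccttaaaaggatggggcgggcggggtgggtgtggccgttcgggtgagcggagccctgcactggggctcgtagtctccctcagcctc
The core was searched on both strands in the windows of all 9 genes. It was found in Pck2 as TTACATCA, 103 bases before the RefSeq start, and in G6pc as TTGCATCA, 138 bases before its RefSeq start. The G6pc gene model behind the FPKM values starts earlier, at chr11:101367561, so that match lies inside the model. In all 32817 RefSeq windows of that length, 3.97% held the core. Neither the cAMP response element TGACGTCA (1.79% of windows) nor the unfolded protein response element core TGACGTGG (0.676%) was found in a window of the 9 genes. A match of letters is a description and shows no binding.

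**Figure D1:**
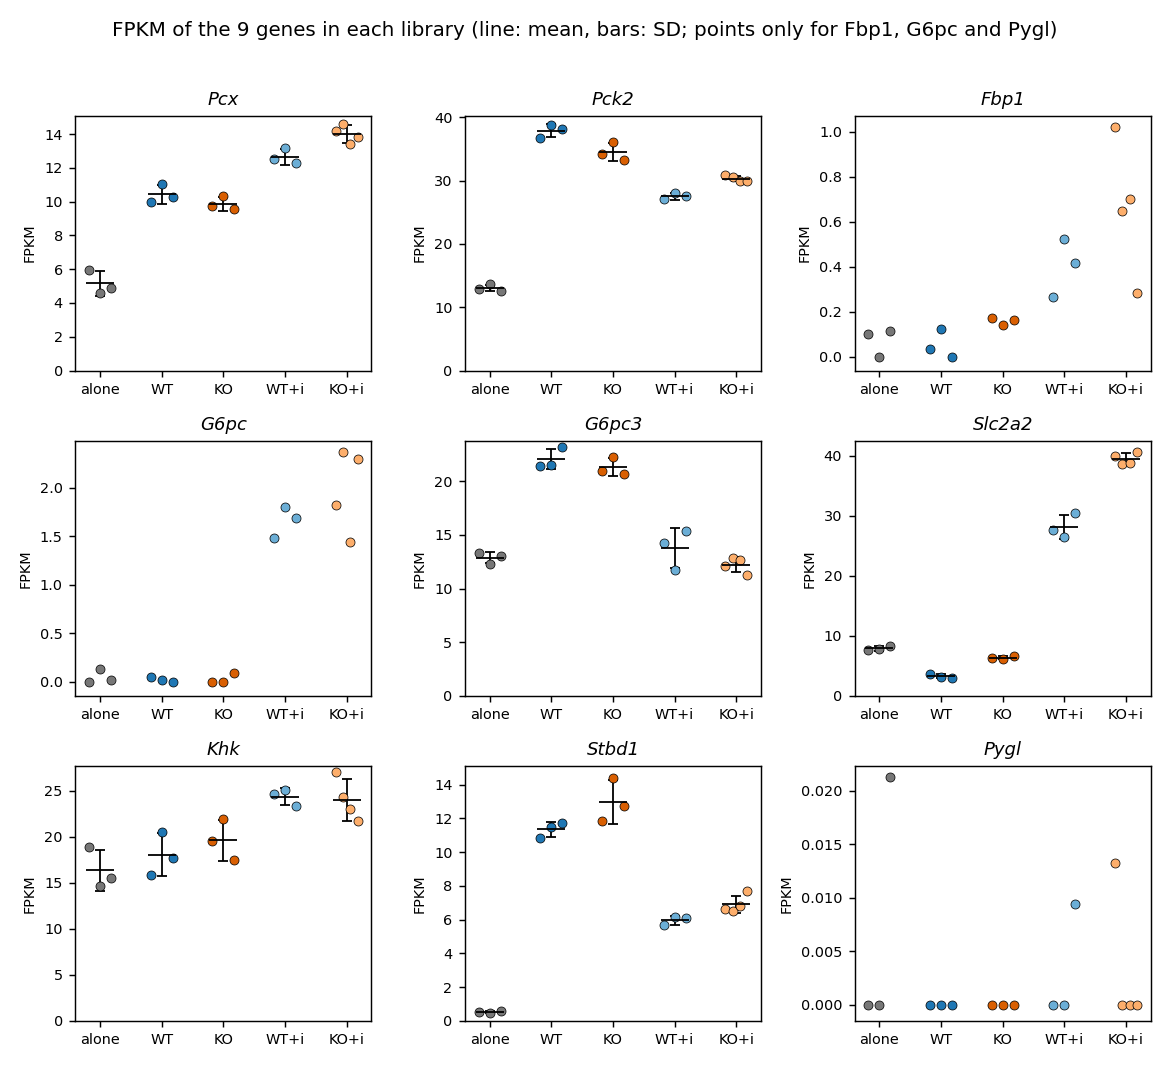
FPKM of each of the 9 genes (1 panel per gene, y axis, linear and holding 0, with a scale of its own) in each of the 16 libraries, by group on the x axis (alone: hepatocytes alone; WT and KO: co-cultures; +i: with CXCR2 inhibitor). Points are libraries, lines are group means and bars are SD, drawn for the 6 tested genes. Pck2 and Stbd1 were highest in the co-cultures without inhibitor, Pcx and Slc2a2 in KO co-culture with inhibitor, and Pygl was at or near 0 throughout.

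Both enzymes that start glucose production from pyruvate rose in co-culture, and the inhibitor then moved them in opposite directions. Pcx (ENSMUSG00000024892, GRCm38 chr19:4510472-4621752, plus strand) encodes pyruvate carboxylase, which feeds oxaloacetate to gluconeogenesis and to the citric acid cycle. It measured 5.96, 4.58 and 4.91 FPKM in hepatocytes alone, 9.96, 11.05 and 10.3 in WT co-culture and 9.72, 10.4 and 9.58 in KO co-culture. With inhibitor it measured 12.5, 13.2 and 12.3 FPKM in WT and 14.2, 14.6, 13.4 and 13.8 in KO co-culture. The 3 libraries of hepatocytes alone lay below all others, WT and KO co-cultures overlapped, and all 7 libraries with inhibitor lay above all without it. The rise in WT co-culture was 0.90 ± 0.07 (limma, adjusted p = 3.35e-08) and that in KO co-culture 0.83 (adjusted p = 8.58e-08). The inhibitor added 0.26 in WT (adjusted p = 0.00439) and 0.46 ± 0.06 in KO co-culture (adjusted p = 1.63e-05), and the difference of these effects, 0.21 ± 0.09, did not pass the test (adjusted p = 0.452). Across the groups, mean Pcx rose from 5.15 ± 0.719 FPKM (SD, n = 3) to 14.0 ± 0.512 (SD, n = 4), a ratio of 2.72.

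Pck2 (ENSMUSG00000040618, GRCm38 chr14:55540266-55551242, plus strand) encodes the mitochondrial form of phosphoenolpyruvate carboxykinase, a known target of the stress factor ATF4. It measured 12.9, 13.6 and 12.6 FPKM in hepatocytes alone, 36.7, 38.7 and 38.2 in WT co-culture and 34.3, 36.1 and 33.3 in KO co-culture. In the presence of the inhibitor, Pck2 measured 27.0, 28.0 and 27.5 FPKM in WT and 30.8, 30.5, 29.9 and 30.0 in KO co-culture. No group overlapped another, in the rising order hepatocytes alone, WT with inhibitor, KO with inhibitor, KO and WT. Mean Pck2 was 2.91 times as high in WT co-culture as in hepatocytes alone, a difference of 1.47 ± 0.04 (limma, adjusted p = 2.24e-13), and KO co-culture gave 1.34 (adjusted p = 6.19e-13). KO and WT co-culture differed by −0.13 ± 0.04, which did not pass the test over all genes (adjusted p = 0.0992, 95% interval −0.21 to −0.05). With the scaling that left out mitochondrial and the 50 highest genes, that difference was −0.15 and passed, with an adjusted p of 0.0499. With the inhibitor Pck2 fell by 0.45 ± 0.04 in WT (adjusted p = 1.02e-07) and fell by 0.18 ± 0.04 in KO co-culture (adjusted p = 3.78e-04).

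The difference of the inhibitor effects on Pck2, KO minus WT, was 0.26 ± 0.05 (adjusted p = 0.0380), the only such difference called among the 6 genes. It lost the call, at an adjusted p of 0.0587, with only the 4 groups involved in the fit. Leaving out any 1 of 11 of the 13 libraries involved also ended the call, with adjusted p values up to 0.110, while its size stayed between 0.24 and 0.30. With WT replicate 1 or KO replicate 2 left out, it was still called. Atf4 itself measured 138 FPKM in hepatocytes alone, 245 in WT and 231 in KO co-culture, and 164 and 177 with inhibitor. A part of Atf4 in the Pck2 levels was not tested. Pck1, the cytosolic form that prevails in mouse liver, was low in all groups, at means of 0.0405 FPKM in hepatocytes alone, 0.0488 in WT and 0.0347 in KO co-culture (7, 10 and 7 fragments), and 0.169 and 0.173 with inhibitor (29 and 47 fragments). Those means were higher with inhibitor, as for Fbp1 and G6pc below, and Pck1 was not tested. The Pck2 gene model of 7806 bases is longer than its longest coding transcript (4625 bases), so its FPKM would be higher on the transcript's length. It shares 53 exon bases with Gm10876 on the other strand, which had a mean of 0.00358 FPKM; the labels do not say whether counting used strand.

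The late gluconeogenic genes Fbp1 and G6pc were close to 0 without the inhibitor and were raised by it in both co-cultures. G6pc (ENSMUSG00000078650, GRCm38 chr11:101367561-101377903, plus strand) encodes the catalytic subunit of the glucose phosphatase of liver and kidney. It measured 0, 0.130 and 0.0203 FPKM in hepatocytes alone, 0.0514, 0.0219 and 0 in WT co-culture and 0, 0 and 0.0917 in KO co-culture. The libraries with inhibitor measured 1.48, 1.80 and 1.69 FPKM in WT and 1.82, 2.37, 1.44 and 2.29 in KO co-culture. All 7 libraries with inhibitor lay above the 9 without it, and both inhibitor groups overlapped. In recovered fragments these are 6, 3 and 4 in the 3 groups without inhibitor, against 199 in WT and 378 in KO co-culture with it. Per unit of depth, the inhibitor raised G6pc 74.5 times in WT (95% exact interval of counting error alone, 25.1 to 365) and 70.0 times in KO co-culture (27.1 to 258). Against hepatocytes alone, the ratios were 35.6 (16.1 to 98.1) and 42.0 (19.1 to 115). In a fit with no filter, over 27086 genes, the inhibitor effects were 1.37 ± 0.11 in WT (limma, adjusted p = 2.21e-07) and 1.52 ± 0.10 in KO co-culture (adjusted p = 3.40e-08). KO and WT co-culture with inhibitor differed by a ratio of 1.18 (0.991 to 1.41), which did not pass (adjusted p = 0.709).

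Fbp1 (ENSMUSG00000069805, GRCm38 chr13:62864753-62888282, minus strand) encodes the liver form of fructose bisphosphatase, which sets the pace of glucose production. It measured 0.103, 0 and 0.115 FPKM in hepatocytes alone, 0.0365, 0.124 and 0 in WT co-culture and 0.174, 0.139 and 0.163 in KO co-culture. Fbp1 in the presence of inhibitor measured 0.267, 0.524 and 0.419 FPKM in WT and 1.02, 0.647, 0.701 and 0.283 in KO co-culture. Each library with inhibitor lay above each without it, and KO replicate 4 with inhibitor fell within the range of WT with inhibitor. The groups held 7, 5, 16, 34 and 94 fragments in that order. The inhibitor ratio was 7.64 in WT (95% exact interval 2.97 to 25.0) and 4.35 in KO co-culture (2.55 to 7.93). With no filter, both passed (limma, adjusted p = 0.0211 and 0.00376). KO exceeded WT with inhibitor by a ratio of 1.72 (1.15 to 2.62) in fragments, but not in the test over libraries (adjusted p = 0.636).

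G6pc3 and G6pc, which encode phosphatases of the same family, had different patterns. G6pc3 (ENSMUSG00000034793, GRCm38 chr11:102189620-102194081, plus strand) encodes the form found in most tissues, whose loss is known for its effect on neutrophils. It measured 13.3, 12.3 and 13.0 FPKM in hepatocytes alone, 21.5, 21.6 and 23.2 in WT co-culture and 20.9, 22.3 and 20.7 in KO co-culture. In the inhibitor groups it measured 14.3, 11.7 and 15.3 FPKM in WT and 12.1, 12.9, 12.6 and 11.3 in KO co-culture. The 6 co-cultures without inhibitor lay above the other 10 libraries, which overlapped among their 3 groups. The rise was 0.73 ± 0.08 in WT (limma, adjusted p = 1.00e-06) and 0.68 in KO co-culture (adjusted p = 2.18e-06). With the inhibitor G6pc3 fell by 0.65 in WT (adjusted p = 3.12e-06) and fell by 0.75 ± 0.07 in KO co-culture (adjusted p = 2.79e-07). Against hepatocytes alone, the inhibitor groups then differed by 0.08 in WT (adjusted p = 0.357) and −0.07 in KO co-culture (adjusted p = 0.401), neither of which passed. WT with inhibitor replicate 2 was the lowest of its group. Without it, WT with inhibitor exceeded hepatocytes alone by 0.19 (adjusted p = 0.0146), and the difference of KO from WT with inhibitor was −0.26 (adjusted p = 0.0470).

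Of the 6 tested genes, Slc2a2 had the widest spread over the 4 co-culture groups. It fell in co-culture, less so with KO than with WT cancer cells, and the inhibitor raised it above its level in hepatocytes alone. Slc2a2 (ENSMUSG00000027690, GRCm38 chr3:28697903-28731359, plus strand) encodes GLUT2, the high-capacity glucose transporter of hepatocytes. It measured 7.56, 7.81 and 8.27 FPKM in hepatocytes alone, 3.70, 3.12 and 2.96 in WT co-culture and 6.35, 6.17 and 6.55 in KO co-culture. Slc2a2 in the inhibitor groups measured 27.7, 26.6 and 30.4 FPKM in WT and 40.0, 38.7, 38.8 and 40.6 in KO co-culture. The order was WT, KO, hepatocytes alone, WT with inhibitor and KO with inhibitor, and no neighbours in it overlapped. Slc2a2 fell by 1.06 ± 0.06 in WT co-culture (limma, adjusted p = 1.56e-09) and fell by 0.27 ± 0.06 in KO co-culture (adjusted p = 0.00173). KO exceeded WT co-culture by 0.79 ± 0.06 (adjusted p = 7.00e-06), a ratio of 1.95 in mean FPKM. The inhibitor raised it 8.65 times in WT, a difference of 2.78 ± 0.06 (adjusted p = 3.84e-14), and 6.22 times in KO co-culture, a difference of 2.46 ± 0.06 (adjusted p = 5.39e-14).

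Both inhibitor groups lay above hepatocytes alone in Slc2a2, with ratios of 3.58 and 5.02, and KO exceeded WT with inhibitor by 0.47 ± 0.06 (limma, adjusted p = 6.01e-04). The inhibitor effects differed by −0.32 ± 0.09, KO minus WT, which did not pass (adjusted p = 0.121). That difference passed at −0.46 with a pseudocount of 0.1 (adjusted p = 0.0499), at −0.49 with limma-voom on recovered fragments (adjusted p = 0.0290), and at −0.39 without WT replicate 1, the highest Slc2a2 library of its group (adjusted p = 0.0216). The summed hepatocyte markers gave the groups the same order of ranges as Slc2a2, from WT to KO with inhibitor. Alb, the largest of them with inhibitor but not without it, had means of 57.1 FPKM in hepatocytes alone, 24.3 in WT and 27.8 in KO co-culture, and 335 and 461 with inhibitor. Whether Slc2a2 moved apart from those markers was not tested.

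Khk changed least of the 6 tested genes, with a largest ratio of group means of 1.49. Khk (ENSMUSG00000029162, GRCm38 chr5:30921431-30931248, plus strand) encodes ketohexokinase, the enzyme that phosphorylates fructose on its way into liver metabolism. It measured 18.9, 14.7 and 15.5 FPKM in hepatocytes alone, 15.9, 20.6 and 17.7 in WT co-culture and 19.5, 22.0 and 17.5 in KO co-culture. Khk in the presence of inhibitor measured 24.7, 25.1 and 23.3 FPKM in WT and 27.1, 24.3, 23.0 and 21.7 in KO co-culture. The 3 groups without inhibitor overlapped, and so did KO co-culture with and without inhibitor, while WT with inhibitor lay above all 9 libraries without it. Neither co-culture differed from hepatocytes alone past the threshold, at 0.14 ± 0.11 in WT (limma, adjusted p = 0.297) and 0.25 in KO (adjusted p = 0.0571). The inhibitor raised Khk by 0.42 ± 0.11 in WT (adjusted p = 0.00363) and by 0.28 ± 0.10 in KO co-culture (adjusted p = 0.0256). The KO value lost its call without KO replicate 1 (adjusted p = 0.0597), without KO replicate 3 (adjusted p = 0.128), without KO replicate 1 with inhibitor (adjusted p = 0.0771), and with no filter (adjusted p = 0.0585). The KO co-culture against hepatocytes alone was called in 6 of 14 alternatives, whose adjusted p values ran from 0.0132 to 0.220.

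Of the glycogen genes, Stbd1 had the largest rise in co-culture of any member, and Pygl was not detectable at this depth in most libraries. Stbd1 (ENSMUSG00000047963, GRCm38 chr5:92603041-92606579, plus strand) encodes a protein that binds glycogen and anchors it to membranes, with a proposed role in carrying glycogen to lysosomes. It measured 0.554, 0.480 and 0.594 FPKM in hepatocytes alone, 10.8, 11.5 and 11.7 in WT co-culture and 11.8, 14.4 and 12.7 in KO co-culture. Libraries with inhibitor gave 5.66, 6.15 and 6.10 FPKM in WT and 6.65, 6.52, 6.80 and 7.67 in KO co-culture. All 5 groups were apart, with hepatocytes alone lowest, the inhibitor groups between and the co-cultures without inhibitor highest. Mean Stbd1 was 20.9 times as high in WT co-culture as in hepatocytes alone and 23.9 times as high in KO co-culture. On the log scale these were 3.001 ± 0.07 (limma, adjusted p = 6.73e-14) and 3.18 (adjusted p = 3.97e-14). With the inhibitor it fell by 0.83 ± 0.07 in WT (adjusted p = 8.58e-08) and fell by 0.82 ± 0.07 in KO co-culture (adjusted p = 3.83e-08), and the effects differed by 0.01 ± 0.10 (adjusted p = 0.996). With inhibitor, Stbd1 stayed 11.002 and 12.7 times as high as in hepatocytes alone. Although their libraries did not overlap, KO and WT co-culture differed in Stbd1 by 0.18 ± 0.07, which did not pass (adjusted p = 0.252), and by 0.18 with inhibitor (adjusted p = 0.232).

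Pygl (ENSMUSG00000021069, GRCm38 chr12:70190811-70231488, minus strand) encodes the liver form of glycogen phosphorylase, the enzyme that frees glucose units from glycogen. It was at 0 in 13 of 16 libraries, which allows up to 0.01997 to 0.0273 FPKM in those libraries, the worth of 3 fragments. The others were replicate 3 of hepatocytes alone with 0.0213 FPKM, replicate 3 of WT with inhibitor with 0.00939 and replicate 1 of KO with inhibitor with 0.0133. In all, 6 Pygl fragments were counted, so no comparison was made. Pygb, the phosphorylase gene named for brain, had means of 10.5 FPKM in hepatocytes alone, 7.59 in WT and 7.99 in KO co-culture, and 14.6 and 14.9 with inhibitor. These floors and intervals cover counting error only, since PCR copies cannot be told from separate molecules.

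**Figure D2:**
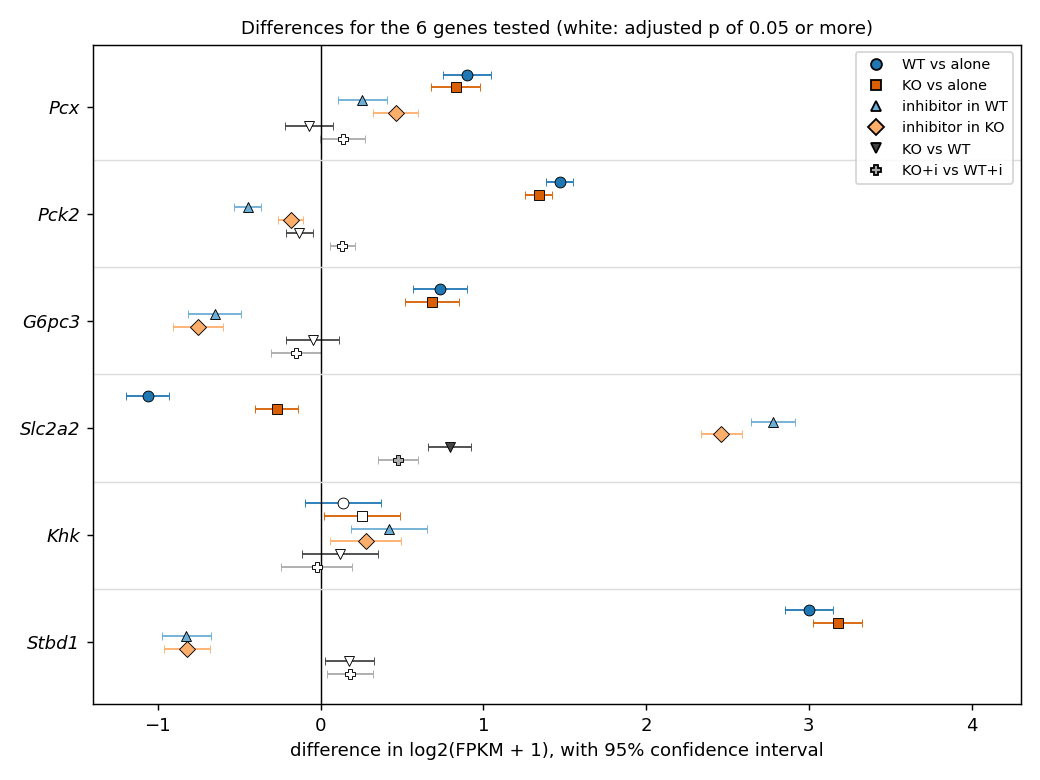
Differences in log2(FPKM + 1) for the 6 tested genes (rows) in 6 comparisons, with 95% confidence intervals as bars. White symbols did not pass an adjusted p of 0.05. Slc2a2 and Stbd1 show opposite signs in co-culture (−1.06 and 3.001 in WT) and under the inhibitor (2.78 and −0.83 in WT), and Slc2a2 is the only gene with filled symbols for KO against WT.

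Counted over the 6 tested genes, WT co-culture against hepatocytes alone raised 4 (Pck2, Pcx, G6pc3 and Stbd1), lowered 1 (Slc2a2) and left 1 uncalled (Khk). Over all genes tested, 30.1% were called higher and 31.9% lower in that comparison, so a call by itself sets no gene apart. KO co-culture gave the same split of 4 higher and 1 lower, against 30.3% and 31.2% of all genes. Both comparisons share the libraries of hepatocytes alone. The inhibitor in WT co-culture raised 3 (Pcx, Khk and Slc2a2) and lowered 3 (Pck2, G6pc3 and Stbd1), against 33.5% and 33.0% of all genes. In KO co-culture it gave 3 higher and 3 lower, against 34.8% and 34.7%. All of Pck2, G6pc3 and Stbd1, which the inhibitor lowered, had risen in co-culture, and Pcx is the gene that rose in both steps. The co-culture libraries without inhibitor enter both steps with opposite sign, which by itself favours opposite directions. The share of all genes with such a reversal was not computed. Against hepatocytes alone, 5 genes were higher and 0 lower in WT co-culture with inhibitor (32.1% and 34.7% of all genes), and again 5 and 0 in KO co-culture with inhibitor (33.3% and 36.1%). The median difference of the 6 genes was 0.82 and 0.76 in WT and KO co-culture against hepatocytes alone (0.01 over all genes tested in both), −0.10 and 0.05 for the inhibitor in WT and KO (−0.01 in both), and 1.09 and 1.22 for the inhibitor groups against hepatocytes alone (−0.02 in both).

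Few genes of the table were called between KO and WT co-cultures. KO against WT co-culture gave 1 higher (Slc2a2) and 0 lower of 6, against 1.65% and 1.34% of all genes. With inhibitor, KO against WT gave 1 higher (Slc2a2) and 0 lower, against 1.66% and 0.649%. The difference of inhibitor effects gave 1 higher (Pck2) and 0 lower, against 0.535% and 0.281%. Of the genes called over the whole table, 55.1% were higher in KO than in WT co-culture, and 43.8% when mitochondrial and the 50 highest genes were left out of the scaling. That scaling also moved the share from 65.6% to 77.3% for the difference of inhibitor effects, and from 48.1% to 58.2% for WT with inhibitor against hepatocytes alone. Slc2a2 kept its direction and its call in both KO comparisons under all alternatives run.

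By the Pearson correlation of log2(FPKM + 1) over the 16 libraries, which fall into 5 groups, each tested gene was set beside the genes most like it. Pck2 was nearest to Nucb2 (0.995) and Cdk2ap2 (0.990), and Stbd1 to Ddit3 (0.993) and Cdk2ap2 (0.990). Pcx was nearest to Npepl1 (0.992) and Slc16a10 (0.984), and G6pc3 to Sel1l3 (0.978) and Mvb12b (0.975). Khk was nearest to Acot8 (0.935) and Lrrc56 (0.934), the lowest likeness of the 6. Slc2a2 was nearest to Frmd4b (0.995) and Gpam (0.994). Among the 6 genes themselves, Pck2 and Stbd1 were most alike (0.986), and Slc2a2 and G6pc3 ran most nearly opposite (−0.785). These values describe group levels that libraries of a group share, and no test was made of them.

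Other genes of these routes, 73 in 6 lists, were read in the same fit, and 51 of them were tested. WT co-culture raised 16 and lowered 22 of the 51, against 30.1% and 31.9% of all genes. The inhibitor raised 33 and lowered 8 in WT (33.5% and 33.0% of all genes) and raised 31 and lowered 7 in KO co-culture (34.8% and 34.7%). In KO against WT co-culture, 3 were higher and 1 lower (1.65% and 1.34%). The counts per list below are for the inhibitor in WT co-culture, where 33.5% of all genes were called higher and 33.0% lower, and the lists were not tested against each other.

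Of the 9 other gluconeogenesis genes tested, 5 rose and 3 fell with inhibitor. Slc37a4, which carries glucose phosphate to the phosphatase encoded by G6pc, went from 10.7 to 20.03 FPKM, a rise of 0.85 (limma, adjusted p = 1.42e-09). Got1, the cytosolic aspartate aminotransferase gene, moved as Pck2 did in sign, with 1.25 in WT co-culture and −0.72 under the inhibitor. Fbp2, the muscle form of fructose bisphosphatase, was not tested and had means of 1.06 and 1.71 FPKM with inhibitor in WT and KO co-culture and at most 0.171 without it. Of 4 other fructose genes tested, 2 rose and 2 fell.

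Of 8 glycogen synthesis genes tested, 4 rose and 1 fell with inhibitor. Gys1, the muscle form of glycogen synthase, rose by 0.90 to 18.3 FPKM, while Gys2, the liver form, was at most at 0.0149 FPKM in the group means. Pgm2, a phosphoglucomutase gene, rose by 1.10. Of 7 other glycogen breakdown genes tested, 5 rose and 2 fell. Gaa, the lysosomal enzyme that degrades glycogen, moved as Stbd1 did in sign, with 0.68 in WT co-culture and −1.26 for the inhibitor. Phka2, a liver subunit of phosphorylase kinase, went the other way, by −0.65 and 1.28.

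Of 6 tested genes of glucose entry and phosphorylation, 4 rose and 0 fell with inhibitor. Gckr, a regulatory protein of glucose phosphorylation in liver, rose by 2.73 on the log2(FPKM + 1) scale, to 7.06 FPKM. A rise of that size to that level puts Gckr below 1 FPKM without inhibitor. It therefore passed the filter only through the libraries with inhibitor and could only be called higher, so it adds no weight to the count of 4. Slc2a1, the widely expressed glucose transporter GLUT1, rose in both steps, by 0.80 and 0.92. Of 17 tested regulators of hepatic glucose output, 13 rose and 0 fell with inhibitor, against 33.5% and 33.0% of all genes, and 5 rose and 9 fell in WT co-culture, against 30.1% and 31.9%. Pdk4, which restrains pyruvate oxidation, rose by 2.83, and Mlxipl, the carbohydrate-sensing factor ChREBP, rose by 2.31. Klf15, a regulator of amino acid use for glucose production, rose by 1.52 in WT co-culture. Hnf4a, a master factor of hepatocyte identity, was lower in KO than in WT co-culture, at −0.27 (limma, adjusted p = 0.00322), the reverse of the sign of Slc2a2.

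**Figure D3:**
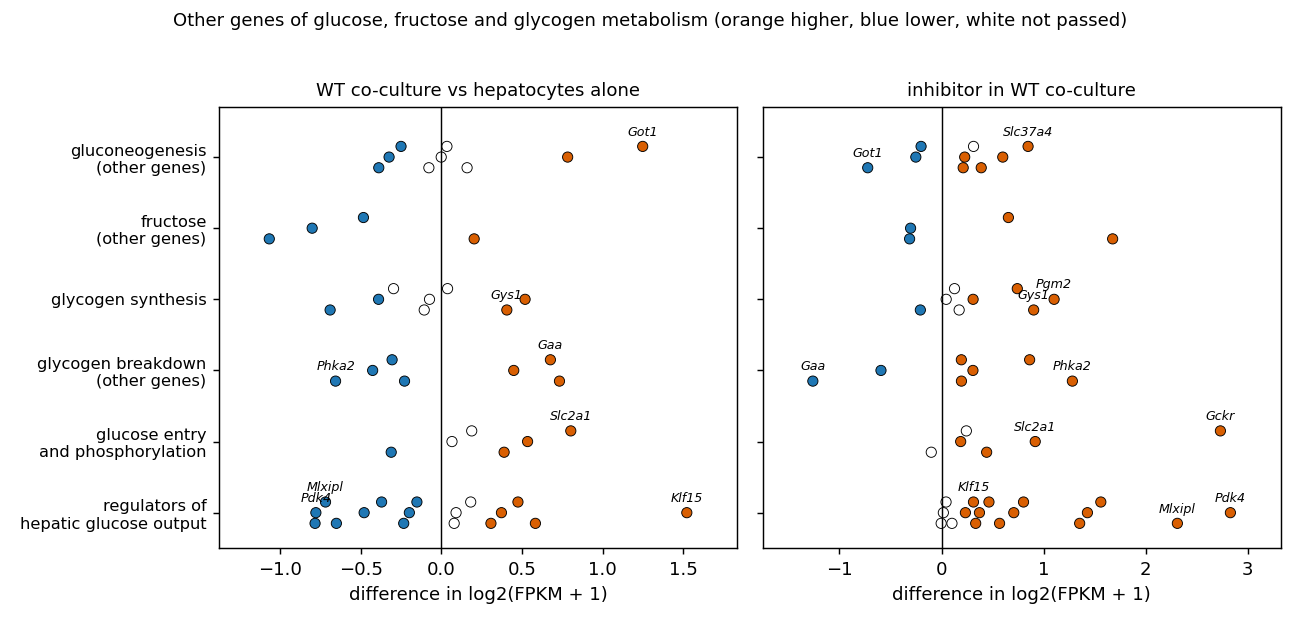
Differences in log2(FPKM + 1) of the tested genes of 6 lists (rows) for WT co-culture against hepatocytes alone (left) and for the inhibitor in WT co-culture (right). Each point is a gene, orange where called higher, blue where called lower and white where it did not pass. With the inhibitor, the regulators and the glucose entry genes have called points on the right side alone, 13 and 4 of them. Gckr, among these 4, passed the filter only through the libraries with inhibitor.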

How the data were processed

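RNA was extracted with the RNeasy kit and libraries were made by Novogene's procedure, per the labels' protocols. HISAT2 and the builds GRCm38 and mm10 are named, per the submitters' processing notes. For the version of HISAT2, the counter, the annotation release and strand use, the entry is: not given in the sources used here. Values were deposited by the authors as FPKM per gene and library (54532 genes, 16 libraries), with no pooling. FPKM times gene length gave whole fragments within 0.1 for 100% of values, from which depth was recovered (15.002 to 21.3 M per library). The authors' divisor was not the plain sum of fragments: sum over divisor averaged 1.03 in hepatocytes alone, 1.00 in both co-cultures and 0.972 and 0.971 with inhibitor in WT and KO. Of the gene identifiers, 54409 were found in GENCODE M21, 98.3% at the same coordinates.

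Values were put on the log2(FPKM + 1) scale. The 11395 genes that averaged at least 1 FPKM entered 1 limma 3.58.1 fit in R 4.3.3, with a mean per group, 11 residual degrees of freedom, an intensity trend, two-sided tests and Benjamini-Hochberg adjustment, in 9 comparisons. The script was tested on simulated data. Low genes were also compared by recovered fragments, with exact 95% Poisson intervals.

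The 9 genes, the other lists and the tests were chosen with earlier results of these data known. Named genes are the 9, at most 2 called genes each way per list and comparison, the 2 genes most alike each tested gene, and Phgdh, Cxcr1, Cxcr2, Alb and Atf4 where needed. Pck1, Fbp2, Gys2, Gm10876 and the cell type markers Ttr, Trf, Cps1, Tat, Apoa1, Asgr1, Cyp2e1, Msln, Krt19, Tff1, Spp1 and Sox9 fall outside that rule and were named after their values were seen. Some listed genes are not reported here by name. Alternatives were a pseudocount of 0.1, no filter, quantile normalization, a scaling without mitochondrial and the 50 highest genes, limma-voom, only the groups compared, a replicate block and leaving out each library, and, added after seeing the data, a scaling to the sum of fragments. No 2 libraries were identical, and replicates differed beyond counting noise (chi-square per degree of freedom 2.57 to 20.9).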

Additional observations from a re-analysis of the deposited data

Results flagged for a closer look

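The difference of the inhibitor effects on Pck2, KO minus WT co-culture, was 0.26 on the log2(FPKM + 1) scale, because the inhibitor lowered Pck2 less with KO than with WT cancer cells. It was called by the test of the difference itself (limma, adjusted p = 0.0380). Pygl in KO co-culture with inhibitor stood out through replicate 1, whose gap to the other 3 libraries made up the whole range of the group (a ratio of 1). That library held 2 Pygl fragments and the others 0. For continuous values chance marks about 1 in 20 groups in this way, but near 0 any group with a single library above 0 reaches that ratio, so it carries no weight here.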

How the results depend on the processing

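Of 35 called differences of the 6 tested genes, 33 were called in each alternative run, and no value of these genes that was called changed sign. The exceptions were the Pck2 difference of inhibitor effects and the Khk inhibitor effect in KO co-culture. For the difference of inhibitor effects, the 93 genes called became 55 with no filter, 34 with the replicate block and 41 with only the groups compared, and 31 to 120 with 1 library left out (31 without KO replicate 1, 120 without WT replicate 1). Among the members, its 1 call became 2 with a pseudocount of 0.1, 2 with limma-voom, 0 with the replicate block, 0 with only the groups compared, and 0 to 2 with 1 library left out. KO against WT co-culture called 341 genes, 17 with only the groups compared and 157 to 398 with 1 library left out (157 without KO replicate 3). Its members went from 1 to 2 in the scaling without mitochondrial and the 50 highest genes. With inhibitor, KO against WT called 263 genes, and 123 to 221 with 1 library left out (123 without WT with inhibitor replicate 1). Its members numbered 1 to 2. The cause of these changes was not tested.

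The replicate numbers did not pair the libraries: deviations of same-numbered libraries from their group means correlated at −0.300 to 0.270, with a median of 0.0104 over 30 pairs. With the replicate block, which leaves KO with inhibitor replicate 4 alone in its block, the Pck2 difference of inhibitor effects was 0.27 (adjusted p = 0.0595). Other member counts kept their values under the block. Fbp1, G6pc and Pygl rest on 156, 590 and 6 fragments over all libraries, which limits what can be said of them.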
